A study of Mus musculus with 5 samples.

Results

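Oxidative phosphorylation is carried out in the inner mitochondrial membrane. Complexes I and II feed electrons from NADH and succinate into the respiratory chain, complexes III and IV pass them on to oxygen, and complex V, the ATP synthase, uses the resulting proton gradient to make ATP. Most subunits are encoded in the nucleus, and several subunits of complex IV exist as a broadly expressed form and a tissue form, such as the forms of heart and skeletal muscle. The transcripts of the nuclear-encoded subunits were followed here in 3 libraries of eye tumors from adult AAV5-Cre;Lats1/2 fl/fl mice and in 2 libraries of uvea from adult wild type mice. In the tumor mice a serotype 5 adeno-associated virus carried Cre recombinase into eyes with floxed alleles of Lats1 and Lats2, which encode kinases of the Hippo pathway. The uvea is the pigmented layer of iris, ciliary body and choroid, and the series title refers to uveal melanoma.

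Members were chosen by gene name alone, as nuclear loci whose symbol begins with Ndufa, Ndufb, Ndufc, Ndufs or Ndufv and a digit, with Uqcr, with Cox and a digit of 4 to 8, or with Atp5, or is Sdha, Sdhb, Sdhc or Sdhd. The rule found 85 of the 24768 loci: 35 of complex I, 4 of complex II, 8 of complex III, 18 of complex IV, 15 of complex V and 5 that are matched by name but are not structural subunits of a complex. Ndufa4, first described in complex I, was counted in complex IV, to which it is now assigned. All members but Cox7b2 and Cox8c, tissue forms listed at 0 in all 5 libraries, had enough fragments to be tested, which left 83. The sources used here give neither the promoter driving Cre nor the mouse strain, and they do not say whether each library comes from its own animal. The p-values therefore reflect the spread between these libraries, which may in part be technical.

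The libraries held 12687703 to 14368272 estimated fragments in tumors and 12799991 and 13911934 in wild type uvea. Of the fragments at loci with a gene name, members took 1.59%, 0.854% and 0.906% in tumor libraries 1, 2 and 3, against 1.61% and 1.37% in wild type libraries 1 and 2. The targeted gene Lats1 was at 3.43, 3.90 and 2.94 FPKM (the authors' level per transcript length and depth) in tumors, against 7.55 and 8.86 FPKM in wild type. Lats2 was at 12.6, 17.0 and 14.3 FPKM in tumors, against 20 and 20.2 FPKM in wild type. Tumor library 1 stood apart in muscle transcripts. The summed level of 18 skeletal muscle markers was 14896, 913 and 780 FPKM in tumor libraries 1, 2 and 3, against 1055 and 1015 FPKM in wild type, and tumor library 1 was the highest of all 5 libraries in 17 of the 18 markers. Acta1, the skeletal muscle actin gene, was at 1925, 126 and 191 FPKM in tumors, against 99.8 and 89.5 FPKM in wild type. Ckm, the muscle creatine kinase gene, was at 884, 32.3 and 20.8 FPKM in tumors, against 101 and 93.1 FPKM in wild type. Tnnt2, the heart troponin T gene, was at 19.9, 2.71 and 8.35 FPKM in tumors, against 0 and 0.0888 FPKM in wild type. The sum of 13 heart and slow muscle markers was 508, 40.4 and 74.9 FPKM in tumors, against 21.8 and 21.8 FPKM in wild type. Of these, Myh7, a slow myosin gene, was at 5.82, 0.0973 and 0.0256 FPKM in tumors, against 0.585 and 0.986 FPKM in wild type. Other genes of this list went the other way in tumor libraries 2 and 3. Without tumor library 1, 5 of its 9 tested genes rose in edgeR and 1 fell, beside 15.9% and 13.7% of all loci. Their median log2 fold change of tumor over wild type was 1.92. No skeletal muscle marker was at 0 in all libraries of a group. The sum of 11 smooth muscle and pericyte markers was 547, 646 and 818 FPKM in tumors, against 749 and 722 FPKM in wild type. The 6 brown fat markers summed to 164, 26.1 and 7.51 FPKM in tumors, against 5.45 and 4.74 FPKM in wild type, so that tumor library 1 stood apart in these as well. Among them Cidea was at 62.4, 0.595 and 2.66 FPKM in tumors, against 3.81 and 2.85 FPKM in wild type, and Elovl3 at 65.3, 0 and 1.03 FPKM, against 0.133 and 0.0959 FPKM. Dio2 was at 34.6, 25.4 and 1.69 FPKM in tumors, against 0.808 and 1.07 FPKM in wild type, while Ucp1, the defining uncoupling protein, was at 0, 0.0495 and 0 FPKM, against 0 in both wild type libraries. Results are given with and without tumor library 1, and the part of muscle or fat tissue in the results was not tested.

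The defining transcripts of wild type eye layers also differed between the groups. The sum of 6 melanocyte and pigment markers was 11.7, 26.9 and 4.36 FPKM in tumors, against 6648 and 6425 FPKM in wild type, and all 6 fell. The sum of 6 markers of the retinal pigment epithelium was 7.53, 62.2 and 10.6 FPKM in tumors, against 10618 and 10473 FPKM in wild type. The sum of 10 photoreceptor markers was 1.70, 6.05 and 5.87 FPKM in tumors, against 1345 and 1455 FPKM in wild type. Markers of pigment cells were thus far below wild type in tissue that the series title refers to as uveal melanoma, and the uveal tissue held transcripts of the neighbouring retina. The sum of 7 macrophage markers was 594, 459 and 1141 FPKM in tumors, against 152 and 163 FPKM in wild type. In bulk tissue, fewer cells of a type and less RNA per cell cannot be told apart, and the part of cell makeup in the results was not tested.

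Most respiratory chain transcripts were at lower levels in tumor libraries 2 and 3 than in wild type uvea. In tumor library 1 fewer were below wild type, and few members passed the test over all libraries. Over all 5 libraries, 63 of the 83 tested members had a log2 fold change of tumor over wild type below 0 and 20 above it, with a median of −0.34, beside 0.05 over all 15241 tested loci. Past an adjusted p of 0.05 in edgeR's quasi-likelihood test, adjusted over all tested loci by the Benjamini-Hochberg method, 5 members fell and 1 rose. Over all tested loci 15.4% fell and 18.7% rose, so that the share of members called, 7.23%, lay under the background of 34.1%. The members that fell were Ndufs5 and Ndufv3 of complex I, Sdha of complex II, Cox8a of complex IV and Cox4nb, which is matched by name only. The member that rose was Ndufa4l2, a paralog of Ndufa4. With DESeq2, 14 members fell and 1 rose, beside 17.5% and 19.7% of the 18630 loci in that fit. DESeq2 shares here and below count every locus with at least 1 fragment, also any left without an adjusted p. Their base is thus wider than that of the edgeR shares.

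Without tumor library 1, 33 of the 83 members fell in edgeR and Ndufa4l2 rose. Falls made up 39.8% of members, beside 13.7% of the 15053 loci tested in that fit, of which 15.9% rose, and the median log2 fold change was −0.65, beside 0.02 over all of those loci. All 5 falls of the fit over all libraries were among the 33. DESeq2 without tumor library 1 called 43 falls, beside 15.2% of all loci. Tumor library 1 had the highest level of the 3 tumors in 76 of the 83 members (91.6%), beside 27.5% of all tested loci. Its level was a median of 1.68 times the mean of the other tumors, beside 0.947 over all loci. Leaving tumor library 1 out thus lowers the tumor mean of most members by construction. The falls called without it describe the other libraries and are no separate support for a fall. Tumor library 1 lay above both wild type libraries in 37 members, below both in 24 and between them in 22. Over the 15241 tested loci these counts were 6954, 7362 and 925. The share of members above wild type was thus near that of all loci, and the share below was smaller. Tumor libraries 2 and 3 both lay below both wild type libraries in 63 members (75.9%), beside 40.3% of all loci. All 3 tumors lay below both wild type libraries in 24 members (28.9%), beside 35.9% of all loci, and above them in 3 (3.61%), beside 33.7%. The wild type libraries also differed, with library 1 above library 2 in 81 of the 83 members by a median of 1.23 times, beside 0.995 over all loci. This was not particular to members. Library 1 was also higher in 81 of 83 cytosolic ribosomal proteins (1.33 times) and 69 of 76 mitochondrial ribosomal proteins (1.14 times). In citric acid cycle genes it was higher in 8 of 14 (1.02 times). These medians were taken on the FPKM + 1 scale. Leaving out either wild type library left 1 library in that group, and nothing passed in edgeR. The median log2 fold change of members was then −0.23 without library 1 and −0.51 without library 2. Over all loci it was 0.02 and 0.03. DESeq2 then called 2 and 4 members as lower, beside 6.37% and 6.53% of all loci. In edgeR without tumor library 2, 2 members rose and 4 fell, beside 20.1% and 20.7% of all loci, and in DESeq2 4 rose and 7 fell, beside 18.2% and 18.4%. With limma on log2(FPKM + 1) and no filter on low values, 2 fell, beside 10.8%.

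**Figure D1:**
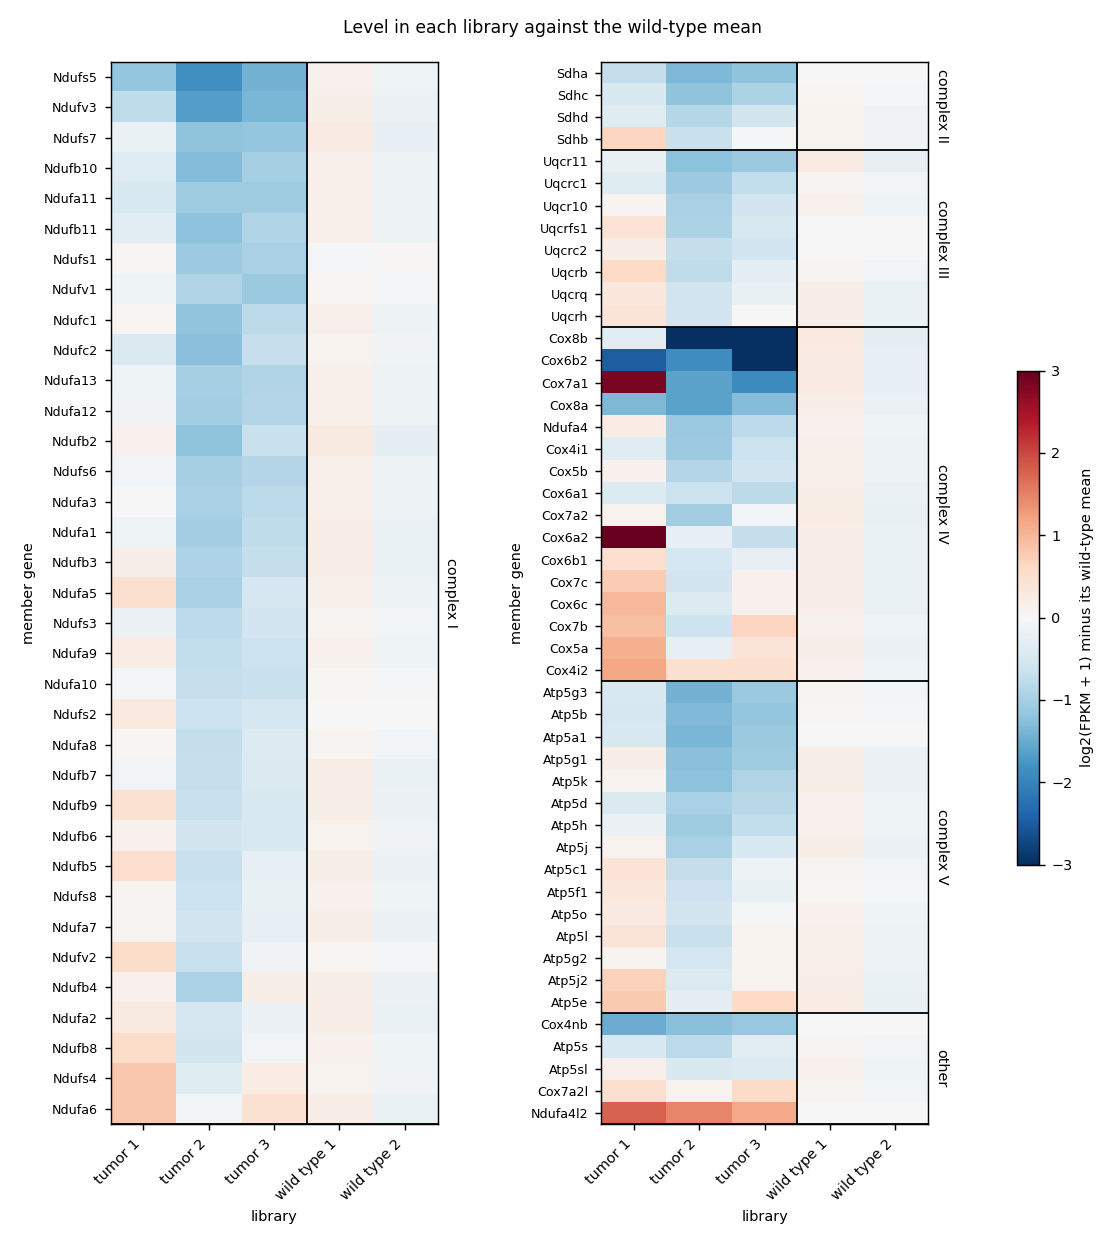
Level of each tested member in each library, as log2(FPKM + 1) minus the mean of the 2 wild type libraries, by complex and sorted within each by the mean of tumor libraries 2 and 3. Colours stop at −3 and 3. Tumor libraries 2 and 3 are blue in most rows, tumor library 1 is pale or red in many, and Cox6a2 and Cox7a1 are dark red in tumor library 1.

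Complex I oxidises NADH and passes its electrons to ubiquinone. Of its 35 members, 31 had a log2 fold change below 0 over all 5 libraries (median −0.37), and Ndufs5 and Ndufv3, both accessory subunits, fell. Ndufs5 was at 109, 67.6 and 91.0 FPKM in tumors, against 266 and 222 FPKM in wild type. Tumor over wild type it was at −1.39 on the log2 scale (SE 0.24, edgeR adjusted p = 0.016), and at −1.55 without tumor library 1 (edgeR adjusted p = 0.022). Ndufv3, at the end of the enzyme where NADH binds, was at 253, 137 and 168 FPKM in tumors, against 488 and 384 FPKM in wild type. Every tumor library lay below both wild type libraries for both genes, and Ndufv3 fell by 1.17 on the log2 scale (SE 0.25, edgeR adjusted p = 0.025), and by 1.38 without tumor library 1 (edgeR adjusted p = 0.019). Ndufs5 shares a stretch of at least 100 bases at 95% identity or more with 1 other annotated gene, so its fragments may be split between copies. With either wild type library left out, neither gene passed in edgeR, at adjusted p from 0.11 to 0.17.

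In complex I, 16 members fell without tumor library 1, from −0.60 for Ndufa10 to −1.55 for Ndufs5 (45.7% of the complex, beside 13.7% of all loci in that fit). They included 4 of the 7 core subunits that the rule matches, which carry the flavin and iron-sulfur clusters or line the path to ubiquinone: Ndufs1, Ndufs3, Ndufs7 and Ndufv1. Ndufs1, the largest iron-sulfur subunit, was at 45.2, 20.4 and 22.1 FPKM in tumors, against 43.7 and 45.2 FPKM in wild type. Tumor library 1 was thus at the wild type level and the other tumors well below it. Ndufs1 had a log2 fold change of −0.56 over all libraries (edgeR adjusted p = 0.31) and of −1.01 without tumor library 1 (edgeR adjusted p = 0.020). The highest level in complex I was that of Ndufa3, an accessory subunit, at 835, 427 and 479 FPKM in tumors, against 943 and 755 FPKM in wild type. It did not pass over all libraries (−0.50, edgeR adjusted p = 0.30) and fell without tumor library 1 (−0.86, edgeR adjusted p = 0.040). The highest log2 fold change in the complex was 0.47, for Ndufa6 (SE 0.31, edgeR adjusted p = 0.29), an accessory subunit whose 3 tumor libraries overlapped with wild type, at 406, 219 and 320 FPKM against 267 and 203 FPKM.

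Complex II, the succinate dehydrogenase, is also an enzyme of the citric acid cycle and is encoded by nuclear genes alone. Sdha, its catalytic flavoprotein, was at 113, 72.6 and 79.4 FPKM in tumors, against 184 and 188 FPKM in wild type. It fell by 1.03 on the log2 scale (SE 0.25, edgeR adjusted p = 0.035), and by 1.24 without tumor library 1 (edgeR adjusted p = 0.020). Sdha did not pass in edgeR without tumor library 2 (−0.93, adjusted p = 0.056), without tumor library 3 (−0.96, adjusted p = 0.061) or without wild type library 1 or 2 (−1.09 and −1.06, adjusted p = 0.19 and 0.20). Sdhb, the iron-sulfur subunit, was at 199, 79.4 and 122 FPKM in tumors, against 135 and 118 FPKM in wild type, and the groups overlapped (0.12, SE 0.41, edgeR adjusted p = 0.77). It was at −0.28 on the log2 scale without tumor library 1. Sdhc and Sdhd anchor the enzyme in the membrane. Sdhc was at 104, 61.5 and 73.8 FPKM in tumors, against 150 and 136 FPKM in wild type, and Sdhd at 90.7, 64.1 and 79.9 FPKM, against 126 and 110 FPKM. All tumor libraries lay below wild type for both. They did not pass in edgeR over all libraries (−0.79 and −0.54, adjusted p = 0.071 and 0.091), and both passed in DESeq2 (−0.83 and −0.58, adjusted p = 0.028 and 0.047). Sdhc fell in edgeR without tumor library 1 (−1.03, adjusted p = 0.027), and Sdhd did not pass there (−0.66, adjusted p = 0.062).

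Complex III passes electrons from ubiquinol to cytochrome c. None of its 8 members passed in edgeR over all libraries, with 1 lower at an unadjusted p under 0.05, or in DESeq2, and their median log2 fold change was −0.21. Uqcr11, a small subunit with the highest mean level over the 5 libraries, was at 824, 411 and 449 FPKM in tumors, against 1142 and 822 FPKM in wild type. It had a log2 fold change of −0.76 (SE 0.38, edgeR adjusted p = 0.18). When tumor library 1 was left out, Uqcr11 (−1.14, edgeR adjusted p = 0.037) and the core proteins Uqcrc1 (−0.85, edgeR adjusted p = 0.047) and Uqcrc2 (−0.59, edgeR adjusted p = 0.042) fell, 3 of the 8 members, beside 13.7% of all loci. Uqcrc1 was the 1 member of complex III in which all 3 tumors lay below both wild type libraries (12.5%, beside 35.9% of all loci). Uqcrc1 was at 125, 75.9 and 97.1 FPKM in tumors, against 172 and 152 FPKM in wild type. Uqcrfs1, the Rieske iron-sulfur protein, was at 111, 41.9 and 58.2 FPKM in tumors, against 82.6 and 80.1 FPKM in wild type, so that tumor library 1 was above and the other tumors below wild type.

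Complex V members are grouped here into the catalytic F1 part and the membrane part with its stalk. None of the 15 passed in edgeR over all 5 libraries, with 4 lower at an unadjusted p under 0.05, and their median log2 fold change was −0.34. DESeq2 called 4 as lower (26.7%, beside 17.5% of all loci), namely Atp5a1, Atp5b and Atp5d of F1 and Atp5g3 of the membrane ring. Atp5b, the catalytic beta subunit, was at 653, 371 and 415 FPKM in tumors, against 962 and 900 FPKM in wild type. On the log2 scale Atp5b was at −0.91 (SE 0.32, edgeR adjusted p = 0.081) and, without tumor library 1, at −1.19 (edgeR adjusted p = 0.032). Atp5a1, the alpha subunit, was at 352, 189 and 225 FPKM in tumors, against 490 and 488 FPKM in wild type, with −0.89 (edgeR adjusted p = 0.089) and −1.19 without tumor library 1 (edgeR adjusted p = 0.030). All 3 tumors lay below both wild type libraries for both genes. F1 was not uniform: Atp5e, its epsilon subunit, was at 1242, 603 and 1092 FPKM in tumors, against 845 and 619 FPKM in wild type, with tumor libraries on both sides (0.47, SE 0.37, edgeR adjusted p = 0.36). Of the 15, 7 fell without tumor library 1 (46.7%, beside 13.7% of all loci), with Atp5g1, Atp5h and Atp5k of the membrane part besides the 4 named for DESeq2. The proteolipid genes of the ring, Atp5g1, Atp5g2 and Atp5g3, encode the same mature subunit. Atp5g1 was at 345, 125 and 143 FPKM in tumors, against 341 and 264 FPKM in wild type, a log2 fold change of −1.13 without tumor library 1 (edgeR adjusted p = 0.031). Atp5g1 shares a stretch of at least 100 bases at 95% identity or more with 19 other annotated genes, and Atp5g2 with 1. Their fragments may thus be split between copies. Atp5g2 was at 392, 256 and 394 FPKM in tumors, against 412 and 329 FPKM in wild type, and did not pass in either fit (−0.04 over all libraries, edgeR adjusted p = 0.91). Atp5k had the highest mean level of complex V, at 1720, 687 and 868 FPKM in tumors, against 1825 and 1425 FPKM in wild type (−0.52, SE 0.44, edgeR adjusted p = 0.39, and −1.01 without tumor library 1, edgeR adjusted p = 0.042).

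**Figure D2:**
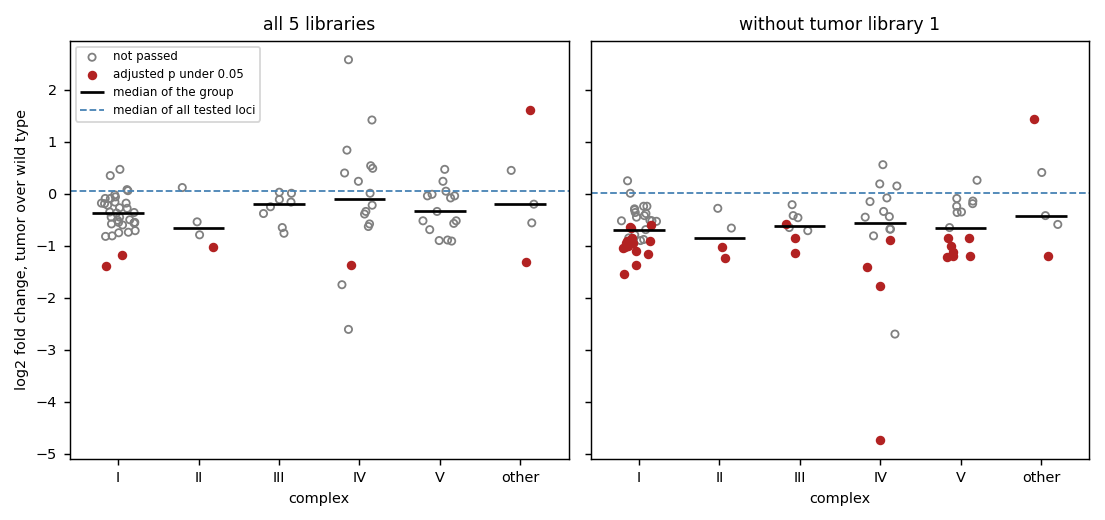
Log2 fold change (tumor over wild type, edgeR) of each tested member by complex, over all 5 libraries (left) and without tumor library 1 (right). Filled points passed an adjusted p of 0.05, black bars are medians of the group, and the dashed line is the median of all tested loci, 0.05 (left) and 0.02 (right). In the right panel 33 members that fell are filled, and Cox8b lies lowest at −4.73.

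Complex IV, cytochrome c oxidase, held both the widest range of changes and the pairs of tissue forms. Of its 16 tested members 8 had a log2 fold change below 0 and 8 above it (median −0.11, range −2.61 to 2.58), and Cox8a fell. Neither end of that range passed in edgeR: Cox6b2 had an adjusted p of 0.070 and Cox6a2 of 0.28. The upper end, Cox6a2, was at −0.44 without tumor library 1. Cox8a, Cox8b, Cox7a1 and Ndufa4 fell without tumor library 1, which is 25.0% of the 16, beside 13.7% of all loci, and the median was −0.56. Among the members above 0 was Cox5a, a small structural subunit, at 257, 103 and 161 FPKM in tumors, against 139 and 107 FPKM in wild type (0.54, SE 0.42, edgeR adjusted p = 0.35). The promoters of the Cox8 pair and of Cox6a1 are shown because the forms of Cox8 differed in which tumors were low, and because Cox6a1 carries the motif with the largest share in member windows. The windows are the 250 bases before the RefSeq start on GRCm38.p6, read 5′ to 3′ on the gene's strand. They lie at chr7:140900447-140900696 for Cox8b, chr19:7217617-7217866 for Cox8a and chr5:115348959-115349208 for Cox6a1, all on the minus strand. Capitals mark matches to any of the motifs CCGGAAG (ETS and GABP), GCGCA and GCGC separated by 1 base (NRF1), AAGGTCA (ERR half-site), CAGCTG (E-box) and TATAAA on either strand.
Cox8b: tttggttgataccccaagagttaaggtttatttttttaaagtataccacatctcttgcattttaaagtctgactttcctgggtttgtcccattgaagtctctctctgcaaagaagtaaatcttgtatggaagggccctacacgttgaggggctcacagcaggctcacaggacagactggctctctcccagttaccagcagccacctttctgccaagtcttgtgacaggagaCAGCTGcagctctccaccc
Cox8a: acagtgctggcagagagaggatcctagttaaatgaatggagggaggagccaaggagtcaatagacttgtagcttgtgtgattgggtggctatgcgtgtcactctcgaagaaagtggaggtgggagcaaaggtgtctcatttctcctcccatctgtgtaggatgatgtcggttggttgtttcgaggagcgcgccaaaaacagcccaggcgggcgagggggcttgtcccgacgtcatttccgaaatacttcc
Cox6a1: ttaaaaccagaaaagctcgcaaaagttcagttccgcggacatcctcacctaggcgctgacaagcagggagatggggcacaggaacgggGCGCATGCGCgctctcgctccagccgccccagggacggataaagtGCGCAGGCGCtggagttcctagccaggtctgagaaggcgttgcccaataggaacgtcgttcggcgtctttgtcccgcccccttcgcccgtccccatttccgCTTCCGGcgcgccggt
The Cox8b window held 1 CAGCTG at 47.2% GC, the Cox8a window none of the motifs at 52.8% GC, and the Cox6a1 window 2 NRF1 motifs and 1 CCGGAAG at 62.8% GC. Promoter windows were matched for 66 of the 85 members, in 71 windows, with Cox6a2, Cox4i2 and Ndufa4l2 among those not matched. The NRF1 motif occurred in 19.7% of member windows, beside 3.74% of all 32851 windows, and CCGGAAG in 16.9%, beside 6.91%. The shares were 7.04% and 4.08% for AAGGTCA, 8.45% and 13% for CAGCTG and 9.86% and 12.4% for TATAAA. A match of letters is a description of the sequence and not of binding.

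Cox8a encodes the broadly expressed form of subunit VIII, the smallest of the enzyme, on chromosome 19 from 7215153 to 7217616 (GRCm38, minus strand). It was at 709, 586 and 726 FPKM in tumors, against 2069 and 1554 FPKM in wild type. The 3 tumors lay close together and well below wild type, and Cox8a fell by 1.38 on the log2 scale (SE 0.22, edgeR adjusted p = 0.014) over all libraries and by 1.41 (edgeR adjusted p = 0.031) without tumor library 1. It did not pass in edgeR without wild type library 1 (−1.21, adjusted p = 0.12) or 2 (−1.62, adjusted p = 0.097). Cox8b, the heart and muscle form, lies on chromosome 7 from 140898945 to 140900446 (minus strand). It was at 1146, 70.0 and 35.2 FPKM in tumors, against 1738 and 1169 FPKM in wild type. Tumor library 1 was thus just below the lower wild type library, while the other tumors were far below it. On the log2 scale the change was −1.75 (SE 1.5, edgeR adjusted p = 0.40) over all libraries and −4.73 (SE 0.50, edgeR adjusted p = 0.018) without tumor library 1, the largest fall of a member in that fit. Cox8b made up 61.8%, 10.7% and 4.62% of the summed FPKM of the Cox8 pair in tumors, against 45.6% and 42.9% in wild type.

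Cox6a2 and Cox7a1, the other heart and muscle forms, were high in tumor library 1 and low in the other tumors and in wild type uvea. Cox6a2 was at 804, 42.1 and 30.3 FPKM in tumors, against 57.8 and 43.9 FPKM in wild type. Its log2 fold change of 2.58 (SE 1.68, edgeR adjusted p = 0.28) became −0.44 without tumor library 1 (edgeR adjusted p = 0.28). Cox6a2 overlaps Itgad in the annotation. No source used here gives the strand setting of the counts, so reads of the overlap cannot be told apart. Cox7a1 was at 425, 18.4 and 14.7 FPKM in tumors, against 69.4 and 48.6 FPKM in wild type. It had a log2 fold change of 1.42 (SE 1.64, edgeR adjusted p = 0.53) over all libraries and fell without tumor library 1 (−1.78, SE 0.36, edgeR adjusted p = 0.038). The broadly expressed partner Cox6a1 was at 773, 654 and 595 FPKM in tumors, against 1188 and 891 FPKM in wild type (−0.58, edgeR adjusted p = 0.10, and −0.61 in DESeq2, adjusted p = 0.038). Cox7a2 was at 204, 91.3 and 180 FPKM in tumors, against 220 and 163 FPKM in wild type (−0.22, edgeR adjusted p = 0.68).

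The muscle forms kept different proportions to each other in the groups. Cox8b was 1.42, 1.66 and 1.16 times Cox6a2 on the FPKM scale in tumors 1, 2 and 3, against 30.1 and 26.6 times in wild type. It was 2.70, 3.80 and 2.40 times Cox7a1 in tumors, against 25.0 and 24.1 times in wild type. Cox6a2 was 1.89, 2.29 and 2.07 times Cox7a1 in tumors, against 0.832 and 0.905 times in wild type. All 3 ratios separated the tumors from wild type without overlap. Of single loci, 35.9% did so with tumors below and 33.7% with tumors above. The third ratio follows from the others, and the ratios were not among the planned comparisons. In the ratios with Cox8b, tumor library 1 lay between the other tumors, although its levels were far above theirs, and in the third it lay just below them. The two-sided exact permutation p was 0.20 for each ratio, the smallest that 3 against 2 libraries allow. The shares of Cox6a2 in the Cox6a pair were 51.0%, 6.05% and 4.85% in tumors, against 4.64% and 4.70% in wild type, a difference of 16 percentage points that was 0.779 without tumor library 1. Cox7a1 made up 67.5%, 16.8% and 7.51% of its pair in tumors, against 24% and 23% in wild type. The difference of 7.12 percentage points was −11.3 without tumor library 1. For Cox8b the difference was −18.6 percentage points, and −36.6 without tumor library 1. Over the 6 pairs tested, the exact permutation p of the share ran from 0.20 to 1 and the adjusted p from 0.30 to 1.

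**Figure D3:**
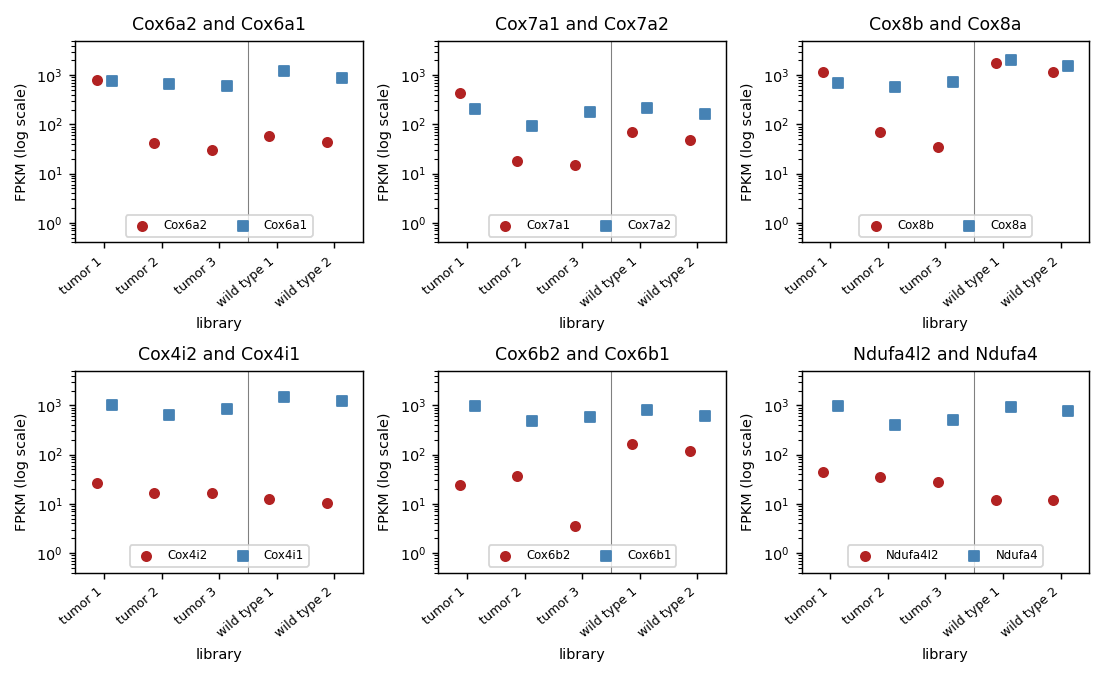
FPKM (log scale) of each tissue form or paralog (red circles) and its broadly expressed partner (blue squares) in each library, with tumors left of the vertical line. Cox6a2, Cox7a1 and Cox8b are high in tumor library 1, at 804, 425 and 1146 FPKM, and at 70.0 FPKM or less in the other tumors.

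The remaining tissue forms moved differently. Cox6b2, known as the testis form of its subunit, was at 23.9, 37.1 and 3.52 FPKM in tumors, against 161 and 116 FPKM in wild type. All tumors lay below wild type, with tumor library 3 the lowest. Cox6b2 did not pass in edgeR (−2.61, SE 0.85, adjusted p = 0.070), passed there without tumor library 3 (−2.13, adjusted p = 0.016), and passed in DESeq2 over all libraries (−2.65, adjusted p = 0.0098). Its partner Cox6b1 was at 985, 483 and 588 FPKM in tumors, against 803 and 605 FPKM in wild type (0.01, edgeR adjusted p = 0.98). Cox4i2, a form known from lung and from low oxygen, was at 26.9, 16.3 and 16.3 FPKM in tumors, against 12.6 and 10.3 FPKM in wild type. All tumors lay above wild type without passing the test (0.84, SE 0.35, edgeR adjusted p = 0.12). Cox4i1, the broad form, was at 1040, 628 and 855 FPKM in tumors, against 1499 and 1198 FPKM in wild type, with all tumors below (−0.63, edgeR adjusted p = 0.14). Cox4i2 thus made up 2.52%, 2.53% and 1.87% of the pair in tumors, against 0.833% and 0.856% in wild type. Cox7b, on the X chromosome, was at 291, 101 and 244 FPKM in tumors, against 170 and 143 FPKM in wild type, with tumor library 2 alone below them (0.49, edgeR adjusted p = 0.46). It rose without tumor library 2 (0.79, edgeR adjusted p = 0.046). Ndufa4 was at 993, 390 and 494 FPKM in tumors, against 932 and 769 FPKM in wild type (−0.39, edgeR adjusted p = 0.52), and fell without tumor library 1 (−0.89, edgeR adjusted p = 0.049).

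Of the 5 members matched by name only, Ndufa4l2, a paralog of Ndufa4 known to be induced in low oxygen, rose. It was at 43.7, 35.3 and 27.8 FPKM in tumors, against 12.2 and 11.9 FPKM in wild type. Every tumor was above wild type, with 1.62 on the log2 scale (SE 0.26, edgeR adjusted p = 0.014) and 1.44 without tumor library 1 (edgeR adjusted p = 0.025). The gene lies next to Shmt2 and overlaps it in the annotation. Of 13 hypoxia response genes, 3 rose and 4 fell, beside 18.7% and 15.4% of all loci, with a median log2 fold change of −0.10. Bnip3, Ankrd37 and P4ha1 rose, while Vegfa, Slc2a1, Pdk1 and Ndrg1 fell. The part of low oxygen in the results was not tested. Cox4nb, an older name of Emc8, encodes a subunit of the membrane protein complex of the endoplasmic reticulum and not of cytochrome c oxidase. It was at 10.1, 12.1 and 13.2 FPKM in tumors, against 30.2 and 30.1 FPKM in wild type, and fell by 1.31 on the log2 scale (SE 0.16, edgeR adjusted p = 0.0085), and by 1.20 without tumor library 1 (edgeR adjusted p = 0.017). Its gene overlaps Cox4i1. Cox7a2l, which takes part in joining complexes III and IV, was at 250, 195 and 267 FPKM in tumors, against 191 and 170 FPKM in wild type, above wild type in all tumors without passing (0.45, SE 0.21, edgeR adjusted p = 0.15). Atp5s and Atp5sl were at 2.80 to 15.4 FPKM in tumors, against 5.2 to 14.9 FPKM in wild type, and did not pass.

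Summed over its members, each complex was lower in tumor libraries 2 and 3 than in wild type, while tumor library 1 lay between the wild type libraries in all but complex II. Complex I summed to 8881, 4658 and 5874 FPKM in tumors, against 9787 and 7849 FPKM in wild type. Complex II summed to 506, 278 and 355 FPKM in tumors, against 596 and 552 FPKM in wild type. Complex III summed to 3730, 1829 and 2355 FPKM in tumors, against 3798 and 3001 FPKM in wild type. The shares of the complexes in the summed chain moved less than the sums did. Complex IV, at 10211, 4270 and 5456 FPKM in tumors against 10883 and 8236 FPKM in wild type, made up 31.6%, 27.6% and 26.9% of the chain in tumors, against 31.8% and 30.2% in wild type. Complex V, at 8993, 4437 and 6213 FPKM in tumors against 9159 and 7594 FPKM in wild type, made up 27.8%, 28.7% and 30.7%, against 26.8% and 27.9%. The log2 of the tumor mean over the wild type mean ran from −0.36 for complex V to −0.60 for complex II, and without tumor library 1 from −0.65 for complex V to −0.98 for complex IV. By the median log2 fold change of members, the order without tumor library 1 was another, with complex IV nearest to 0 at −0.56 and the others at −0.62 to −0.85. The chromosome M loci, which are not members and carry no gene name in the table, were again highest among tumors in library 1, with one at 4615.9, 1527.6 and 1271.2 FPKM in tumors, against 3447.5 and 3556.5 FPKM in wild type.

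**Figure D4:**
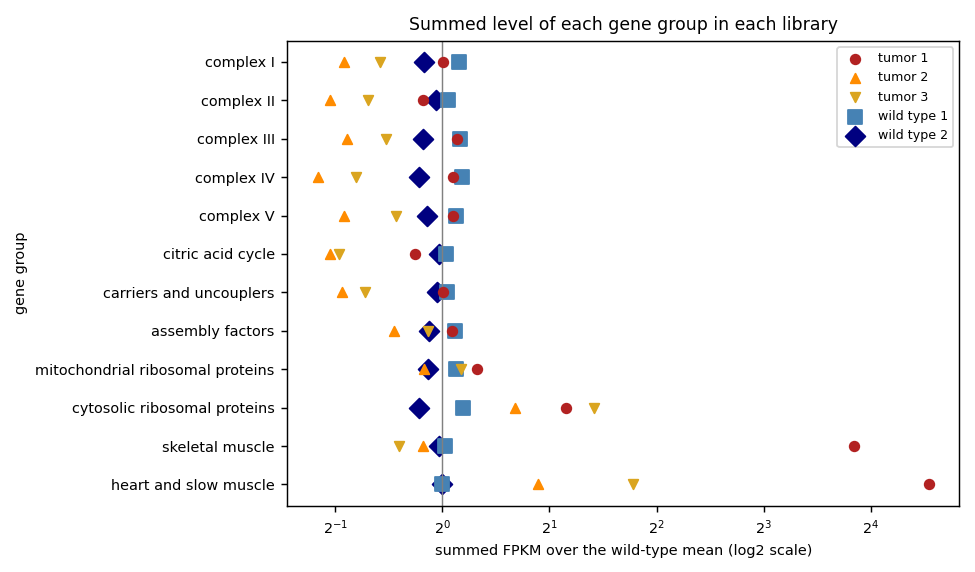
Summed FPKM of each complex and of related gene groups in each library, divided by the mean of the wild type libraries (log2 axis, vertical line at the wild type mean). In complexes I to V tumor libraries 2 and 3 lie left of both wild type libraries, and in the muscle lists tumor library 1 lies far to the right.

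Other genes of mitochondrial energy metabolism were counted in the same fits, beside 15.4% of all loci that fell and 18.7% that rose over all libraries, and 13.7% and 15.9% without tumor library 1. In the citric acid cycle, 4 of 14 genes fell over all libraries (median −0.63) and 9 of 14 without tumor library 1 (median −0.87). Tumor library 1 was the highest tumor in 13 of the 14, so leaving it out lowers their tumor mean by construction. Suclg2, a subunit of the GDP-forming succinyl-CoA ligase, was at 22.7, 20.7 and 16.5 FPKM in tumors, against 74.0 and 74.2 FPKM in wild type (−1.85, SE 0.18, edgeR adjusted p = 0.0061). Ogdh, of the 2-oxoglutarate dehydrogenase complex, was at 29.6, 21.1 and 21.9 FPKM in tumors, against 69.4 and 71.0 FPKM in wild type (−1.49, SE 0.22, edgeR adjusted p = 0.012). Both were low in all 3 tumors, tumor library 1 included. Of 48 assembly factors 5 fell, with a median of −0.07, and Cox15, which makes heme A for complex IV, was at 4.80, 4.31 and 4.76 FPKM in tumors, against 10.3 and 9.77 FPKM in wild type (−1.07, SE 0.13, edgeR adjusted p = 0.0085).

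Of 11 other respiratory chain proteins 2 fell over all libraries and 4 without tumor library 1, and Higd2a, which associates with complex IV, was at 165, 159 and 146 FPKM in tumors, against 390 and 307 FPKM in wild type (−1.10, SE 0.17, edgeR adjusted p = 0.013). Of 10 tested carriers and uncouplers, 0 passed in edgeR over all libraries, with 2 lower at an unadjusted p under 0.05 and 2 lower in DESeq2, and 3 fell in edgeR without tumor library 1. Among 18 regulators of mitochondrial biogenesis 2 rose and 1 fell over all libraries, and 2 rose and 5 fell without tumor library 1. Ppargc1b, a coactivator of respiratory genes, was at 0.911, 0.846 and 1.51 FPKM in tumors, against 4.71 and 4.43 FPKM in wild type, and fell by 2.05 on the log2 scale (SE 0.33, edgeR adjusted p = 0.015). Gabpb1, a subunit of the factor GABP, was at 7.17, 7.11 and 9.07 FPKM in tumors, against 4.16 and 3.75 FPKM in wild type, and rose (0.98, SE 0.20, edgeR adjusted p = 0.024). Pprc1, a coactivator related to Ppargc1b, was at 4.75, 7.09 and 9.32 FPKM in tumors, against 3.10 and 3.45 FPKM in wild type, and rose (1.16, SE 0.32, edgeR adjusted p = 0.047). Of 76 mitochondrial ribosomal proteins 3 rose and 3 fell (median 0.13). Cytosolic ribosomal proteins moved the other way from the respiratory chain, with 56 of 83 higher in tumors past the test (median 1.22), and 4 of 83 past it without tumor library 1 (median 1.17, beside 15.9% of all loci that rose there). Their summed level was 174897, 125138 and 208656 FPKM in tumors, against 89383 and 67306 FPKM in wild type.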

How the data were processed

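Frozen tissue was extracted with Trizol and sequenced as Illumina TruSeq libraries, per the labels' protocols. The tools named in the submitters' processing notes are Cuffdiff, Cufflinks 2.2.1 and TopHat2 2.0.9, on mm10. The sources used here give no annotation and no strand setting. Per the file headers, the deposited table gives an estimated count of fragments, not scaled between libraries, and an FPKM scaled by the authors (factors 1.06, 1.05 and 0.997 in tumors, 1.00 and 0.931 in wild type). The condition column gives the group. Replicate numbers of the table are not tied to those of the labels, so libraries are numbered in the table's order and were not paired.

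Estimated counts were rounded, and the 23141 named loci entered edgeR 4.0.16 (R 4.3.3) with filterByExpr (minimum count 10), TMM factors (1.04, 1.08 and 0.909 in tumors, 0.982 and 1.00 in wild type) and the quasi-likelihood F-test without covariates. Unnamed loci (1627, with 1.52% to 4.37% of fragments) were left out. Counts at an unadjusted p under 0.05 are no calls, and no share over all loci was counted for them. P-values are two-sided and adjusted over all tested loci by the Benjamini-Hochberg method, "rose" and "fell" stand for an adjusted p under 0.05, and an SE is the fold change over the square root of F. Alternatives were DESeq2 1.42.0, other scalings, no filter, each library left out, a replicate block, and limma 3.58.1 on log2(FPKM + 1) or log2(FPKM + 0.1). The limma filter kept loci where the mean of either group reached 1 FPKM. All libraries differed by more than sampling noise (chi-square per degree of freedom 5.43 for the wild type pair and 102 to 129 for tumor pairs). Near-identical copies were sought with BLAST 2.17.0 among GENCODE M21 transcripts, and 36 of the 85 members had one at 95% identity or more over at least 100 bases, while 38 overlapped another annotated gene. Promoter sequences are from RefSeq (GRCm38.p6).

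Members and gene lists were chosen with earlier results of these data known. Members named are the complex IV forms, Ndufa4, Ndufa4l2, the Sdh genes, the highest mean FPKM of each complex, and the smallest p-values among called members. Ndufs1, Ndufa6, Ndufa10, Cox5a, Uqcrc1, Uqcrc2, Uqcrfs1, the ATP synthase genes other than Atp5k, Atp5s and Atp5sl were named after their values were seen.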

Additional observations from a re-analysis of the deposited data

How the results depend on the processing

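The number of members that fell was 5 over all libraries, 14 in DESeq2, 33 without tumor library 1 in edgeR and 43 without it in DESeq2, and 2 in limma without a filter. Over edgeR fits that leave out 1 library the falls ran from 0 to 33, the rises from 0 to 2 and the calls over all loci from 0 to 6144, with 0 wherever a wild type library was left out. The median log2 fold change of members was −0.23 without wild type library 1 and −0.51 without wild type library 2. In DESeq2 the same fits gave 2 to 43 falls, 1 to 4 rises (4 without tumor library 2) and 2800 (without wild type library 1) to 6753 calls, with 2837 without wild type library 2. Falls without wild type library 1 were 2. The replicate block, by the table's own numbers, left 3067 of all loci called, with 5 falls and 1 rise among members, of which Sdha was not one (−0.99, edgeR adjusted p = 0.079) and Cox6b2 was (−2.12, edgeR adjusted p = 0.046). Deviations of libraries with the same number correlated at 0.0133 and 0.0283, so the numbers were not taken as pairs. Of all called loci 54.8% were higher in tumors in edgeR (2852 higher, 2349 lower) and 41.5% in limma without a filter (1765 higher, 2492 lower).

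Among the 24 named members with a test, 357 of 432 values kept their direction and side of the threshold, 22 were no longer past it, 28 newly past it and 25 changed sign; the cause was not tested. Without tumor library 1, Cox6a2 was at −0.44 (edgeR) and −0.47 (DESeq2), Cox7a1 at −1.78 and −1.81, Cox6b1 at −0.34 and −0.37, Sdhb at −0.28 and −0.31, and the Cox7a1 share differed by −11.3 percentage points. Cox6b1 was also at −0.02 (DESeq2, RLE scaling), −0.22 (without wild type library 2, both tools) and −0.09 (limma). Sdhb was at −0.01 without wild type library 2 (both tools) and −0.02 in limma. Cox7a1 was at −0.22, −0.25 and −0.22 in limma with a pseudocount of 1, 0.1 and 1 without a filter. Cox7a2 was at 0.02 without tumor library 2 in both tools. With 1 library left out in turn (edgeR), Cox6a2 ran from −0.44 to 3.10, Cox6b1 from −0.34 to 0.19, Cox7a1 from −1.78 to 1.95, Sdhb from −0.28 to 0.36 and the Cox7a1 share from −11.3 to 18.7 percentage points. Counting error is largest for members with few fragments, such as Cox6b2 with 18 and Cox7a1 with 31 in tumor library 3.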
